A study of Mus musculus with 60 samples.

Results

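The 9 postsynaptic scaffold genes Shank1, Shank2, Shank3, Homer1, Dlg2, Dlg4, Dlgap1, Dlgap4 and Lrfn2 were followed through 60 libraries of mouse prefrontal cortex. They were chosen by name, with earlier results of these data known: the 9 rows of the deposited table of normalized counts, of 18088 genes in all, whose Ensembl identifiers map to these symbols. RNA came from C57BL/6J mice at postnatal day 25. The libraries fall into 12 groups of 5: 2 genotypes of Trip12, a gene for a ubiquitin ligase, both sexes, and 3 treatments that reached the pups through the dam's milk from day 3 to day 24. Pups received vehicle, the mood stabiliser lithium or the antidepressant fluoxetine, which blocks serotonin reuptake. Genotype is given as HT (heterozygous) or WT (wild type), and the labels name no allele, dose, litter or animal number. Nothing in them says whether replicates came from separate litters, and p-values therefore reflect only how far these libraries spread.

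As background, the postsynaptic density of an excitatory synapse is a stack of scaffold proteins beneath the glutamate receptors. Dlg4 and Dlg2 encode membrane-associated guanylate kinases that hold receptors and adhesion molecules at the membrane. Dlgap1 and Dlgap4 encode linkers that bind these kinases on one side and Shank proteins on the other. Shank1, Shank2 and Shank3 encode the large scaffolds of the deeper layer, which bind actin regulators and the protein encoded by Homer1. Homer1 protein in turn reaches metabotropic glutamate receptors, and its gene also makes a short form that neuronal activity induces. Lrfn2 encodes a synaptic adhesion molecule that binds Dlg4 protein. In prefrontal cortex these genes are known from pyramidal neurons above all, and several are studied in autism and intellectual disability.

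Trip12 itself did not separate the genotypes. Its group means were 5840.1 to 6413 normalized counts in libraries labelled HT and 5535 to 6175 in libraries labelled WT. The HT mean was the higher in each of the 6 pairs of groups matched for treatment and sex. With vehicle, Trip12 differed between HT and WT by 0.12 ± 0.04 (SE) on the log2 scale (limma, adjusted p = 0.252, higher in 10 of 10 HT libraries). With fluoxetine the difference was 0.13 ± 0.04 (limma, adjusted p = 0.123, higher in 10 of 10). With lithium it was 0.08 ± 0.04 (limma, adjusted p = 0.325, higher in 8 of 10). The level of this gene therefore does not check the genotype labels, and HT and WT below stand for the libraries so labelled. Whole reads recovered from the values summed to 25.1 to 36.6 M (mega) reads in genes per library. Fluoxetine libraries were deeper than vehicle libraries throughout, 32.7 to 36.6 M against 26.6 to 31.0 M. Lithium libraries held 25.1 to 35.9 M. 2 libraries stood apart. HT vehicle male 1 had the lowest slope of log2 value on GC content of its group (-2.61, against 0.17 to 0.80 in the other 4). WT fluoxetine male 2 had a slope of log2 value on log2 gene length of -0.17, against 0.01 in each of the other 4 libraries of its group. Results that change without them are given both ways.

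All 9 genes passed the filter on low values, and all were well above it. Per kilobase of annotated exon, Dlg4 had the highest level, 2217 normalized counts per kilobase on average over the 60 libraries, followed by Shank1 with 2018. Dlgap4 (1072), Dlg2 (1009), Dlgap1 (874), Shank3 (834), Shank2 (829.5) and Homer1 (659) formed a middle range on the same per-kilobase scale, and Lrfn2 was lowest with 212. Exon length takes in every annotated isoform, so these levels understate genes with many alternative exons. Other annotated genes of the table overlap Shank1 (1 gene), Shank3 (1) and Dlg2 (7), and since the sources used here do not give the strand setting of the counting, reads from these cannot be told apart. Homer1 varied most from library to library, with a coefficient of variation of 23.3%, and Dlgap4 least, with 7.29%. Each gene's 12 group means lay close together: the highest was 1.17 times the lowest for Dlg4 and 1.65 times for Homer1, the other 7 genes lying between. In the order of the group means, neighbouring groups differed by less than the larger of their SDs in all 11 steps for 8 genes and in 10 of 11 for Dlgap1. The ends of the orders followed treatment for some genes. The 4 vehicle groups were the 4 lowest for Homer1 and for Lrfn2, the 4 fluoxetine groups were the 4 highest for Lrfn2, and the 4 lithium groups were the 4 lowest for Dlgap1. This is visible in the plot of all 9 genes by group.

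**Figure D1:**
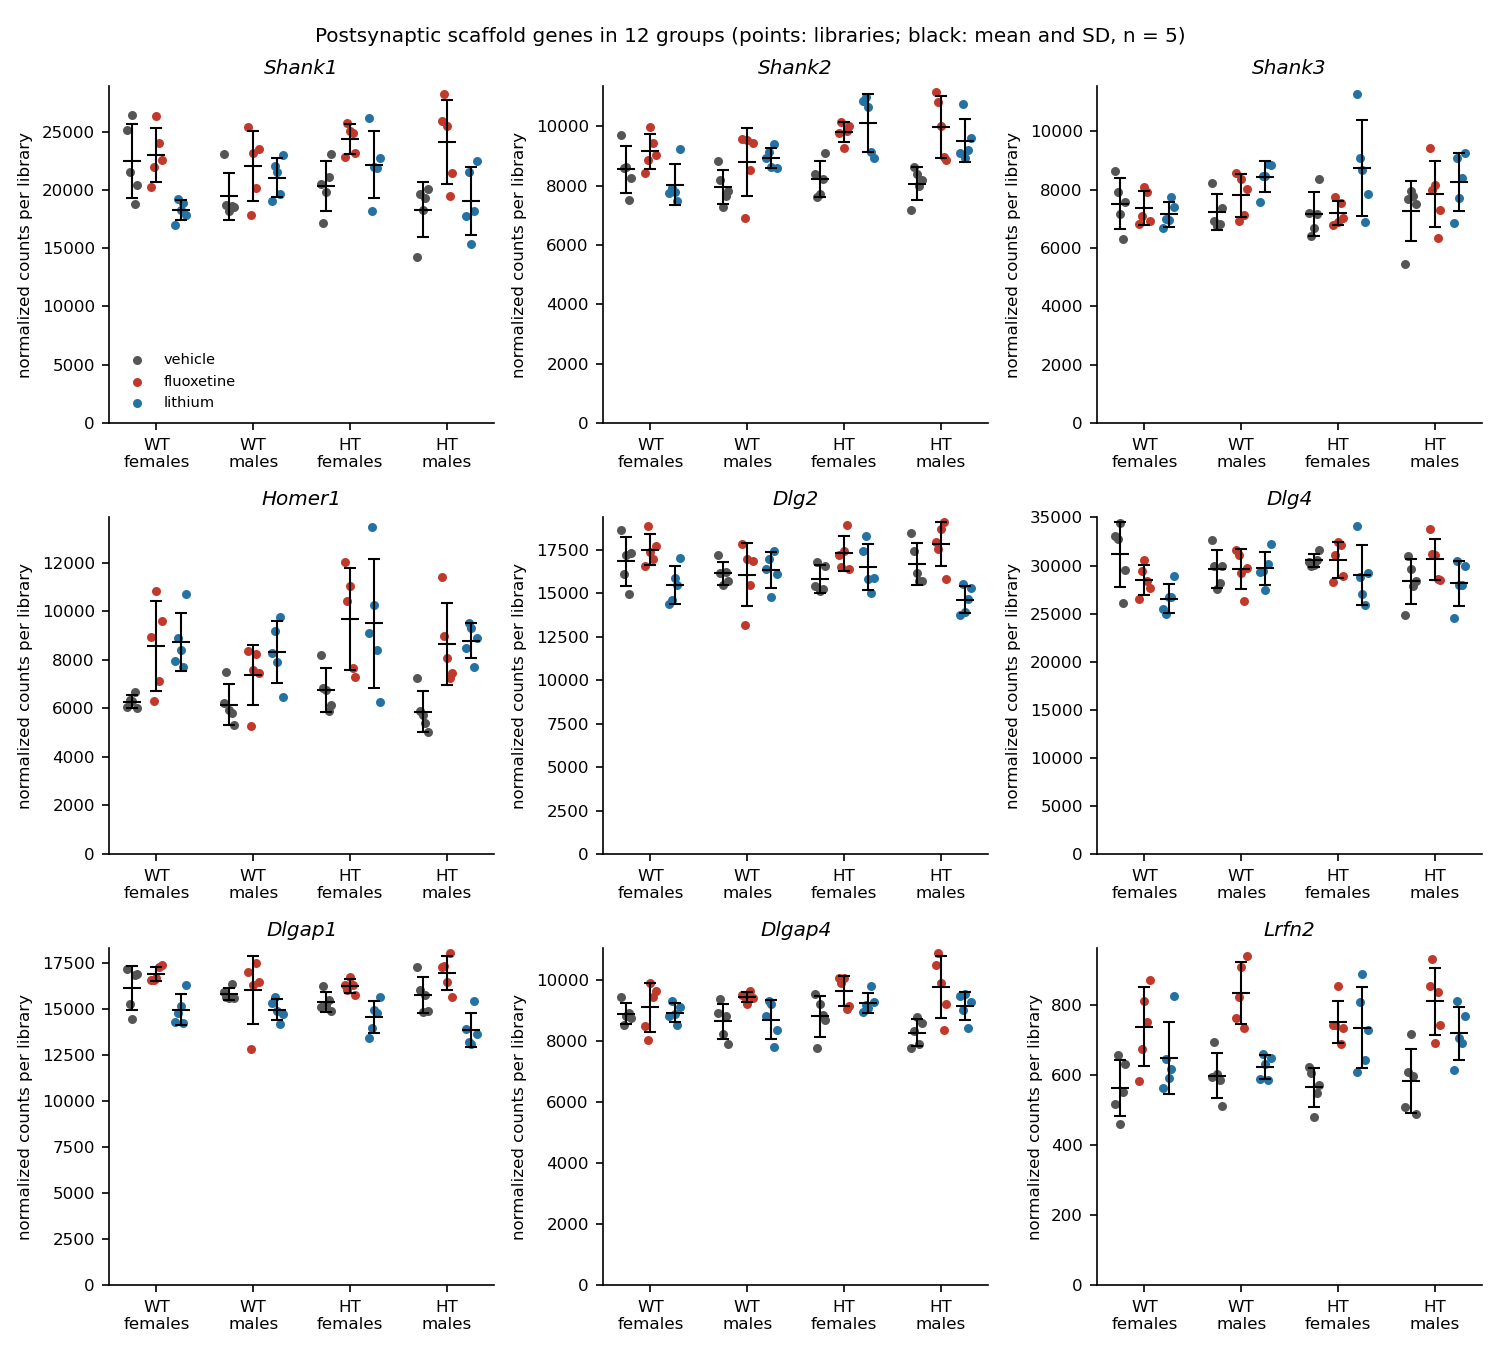
Normalized counts (vertical axis, from 0) of the 9 genes in each of 60 libraries, by genotype and sex (horizontal axis) and treatment (colour); each point is a library and black marks give the group mean and SD (n = 5). Homer1 and Lrfn2 are lowest in the 4 vehicle groups, while Dlg4 and Shank3 overlap across vehicle and fluoxetine.

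Homer1 had the largest range, and the sequence before one of its starts is shown because the gene moved with both drugs. The promoter table (RefSeq, GRCm38.p6) held 6 of the 9 genes, with no entry used for Shank1, Shank2 or Lrfn2. The windows below are the 250 bases before an annotated start on the plus strand, at chr13:93303507-93303756 for Homer1 and chr15:89499358-89499607 for Shank3, a gene that was not called with fluoxetine. The Homer1 window lies inside the annotated span of the gene, and neither window overlaps an annotated exon. Both were chosen after the motif counts were seen: of 12 windows for the 6 genes, 1 other, of Dlg4, holds TGACG, once, and the second Homer1 window holds none. Capitals mark TGACG, the core of the cyclic AMP response element TGACGTCA, searched on both strands.
Homer1: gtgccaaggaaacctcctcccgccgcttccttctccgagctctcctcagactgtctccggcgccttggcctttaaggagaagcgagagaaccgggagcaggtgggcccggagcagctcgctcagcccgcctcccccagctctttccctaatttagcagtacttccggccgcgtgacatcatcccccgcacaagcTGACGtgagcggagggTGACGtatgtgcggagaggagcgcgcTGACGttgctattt
Shank3: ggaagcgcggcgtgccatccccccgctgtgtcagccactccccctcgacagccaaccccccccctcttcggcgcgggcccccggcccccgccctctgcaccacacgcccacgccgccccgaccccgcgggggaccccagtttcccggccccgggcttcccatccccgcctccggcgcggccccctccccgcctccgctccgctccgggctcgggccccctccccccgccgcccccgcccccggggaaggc
The Homer1 window holds TGACG 3 times, with first bases 56, 40 and 14 before the start, and does not hold the full element TGACGTCA. Of 32536 windows of the same length, 17.9% hold TGACG at least once on either strand, 0.695% hold it 3 or more times and 1.56% hold the full element. The Shank3 window holds none, and holds 4 GC boxes (GGGCGG, on either strand), which 33.0% of windows hold at least once. A match of letters is a description of the window only, and no binding was measured.

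Fluoxetine in HT mice went with higher levels of 5 of the 9 genes and with lower levels of none. Lrfn2, Homer1, Shank1, Shank2 and Dlgap4 rose, by between 1.14-fold and 1.44-fold, with sexes averaged (10 libraries against 10). Across all 17804 genes tested, 10.2% were called in this comparison and 4.70% were called higher. The members were chosen with results of this comparison known, so their share against this background is a description and no evidence of its own. All 9 fold changes were positive, with a median of 0.18 on the log2 scale against -0.004 over all genes. Calls rest on limma's test of log2(normalized count + 1), with a threshold of 0.05 on the p-value after Benjamini-Hochberg adjustment over all genes tested, and every adjusted p below is from limma. Each count of libraries compares drug libraries with the mean of the vehicle group of the same sex. Tissue was sequenced in bulk, so more transcript per cell and more cells of a type cannot be told apart.

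Shank1 (ENSMUSG00000038738, chr7:44310253-44360572) encodes a scaffold found mainly in brain. In HT females it measured 22809, 25758, 25077, 24871 and 23163 normalized counts with fluoxetine and 20471, 17147, 19794, 21069.8 and 23088 with vehicle. Males gave 25932, 28216, 25520.1, 19437 and 21451 with fluoxetine against 14279, 19664, 18247, 19343 and 20037 with vehicle. The groups overlap at their ends: 1 vehicle female lay above the lowest fluoxetine female and 2 vehicle males above the lowest fluoxetine male, and HT vehicle male 1 was the lowest of all 60 libraries. Shank1 rose by 0.33 ± 0.07 (SE) on the log2 scale (adjusted p = 0.00261), and 10 of 10 fluoxetine libraries lay above their vehicle mean. Within one sex it was not called, at 0.27 (adjusted p = 0.112) in females and 0.39 (adjusted p = 0.0581) in males.

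Shank2 (ENSMUSG00000037541, chr7:144001928-144424494) was the one member whose HT groups separated in both sexes. The HT female values were 9765, 10159, 9289, 9859.9 and 10026 with fluoxetine and 8413, 7637, 7726, 8221 and 9119 with vehicle. The HT male values were 11153, 10832, 10029.6, 8961 and 8869 and 7178, 8629, 8392, 7989 and 8194 in the same order. In both sexes the lowest fluoxetine library was above the highest vehicle library, which holds for 3.59% of all genes tested in HT females and 1.11% in HT males. Shank2 rose by 0.28 ± 0.05 (SE) (adjusted p = 0.00053, 10 of 10 libraries), and was called in each sex, at 0.26 (adjusted p = 0.0262) in females and 0.30 (adjusted p = 0.0367) in males. Shank3 (ENSMUSG00000022623, chr15:89499623-89560261), the third family member, was not called. It ranged over 6788 to 7736 with fluoxetine and 6399.6 to 8347 with vehicle in females, and over 6348 to 9411 and 5459 to 7960.2 in males. The female fluoxetine range lies inside the vehicle range, while 3 of 5 fluoxetine males lay above the highest vehicle male, and the log2 difference was 0.06 ± 0.07 (SE) (adjusted p = 0.644, 95% interval -0.08 to 0.20).

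Homer1 (ENSMUSG00000007617, chr13:93299635-93405129) rose the most of the 9. HT females held 12018, 10414, 11024, 7677 and 7305 with fluoxetine and 8182, 6853, 6739, 5885 and 6119 with vehicle. For HT males the values were 11406, 8993, 8092, 7269 and 7449 and 7267, 5911, 5737, 5384 and 5032. The fluoxetine females fall into 3 high and 2 low libraries, the low ones inside the vehicle range, while in males the lowest fluoxetine library lay just above the highest vehicle library. The log2 difference was 0.53 ± 0.11 (SE) (adjusted p = 0.000917, 10 of 10 libraries), or 1.44-fold. It was called in females at 0.50 (adjusted p = 0.0304) and not in males at 0.55 (adjusted p = 0.0661). Counts were summed per gene, so the long form and the activity-induced short form are not separated.

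Of the linkers, Dlgap4 (ENSMUSG00000061689, chr2:156613705-156764363) rose and Dlgap1 (ENSMUSG00000003279, chr17:69969073-70821413) was not called. Dlgap4 measured 10058, 9908, 10068, 9065 and 9145 in fluoxetine HT females and 9538, 7761, 9232, 8861 and 8700.2 in vehicle HT females. In males the values were 10489, 10897, 9905, 8380.3 and 9215 and 7773, 8322, 8791, 7896 and 8609. Both pairs of groups overlap, with 2 fluoxetine females and 1 fluoxetine male inside the vehicle range. The Dlgap4 difference was 0.18 ± 0.04 (SE) (adjusted p = 0.00266, 10 of 10 libraries), called in males at 0.24 (adjusted p = 0.0359) and not in females at 0.13 (adjusted p = 0.167). Dlgap1 ranged over 15788 to 16754 with fluoxetine and 14877 to 16251 with vehicle in females, and over 15645 to 18064 and 14862 to 17271 in males, a difference of 0.09 ± 0.04 (SE) (adjusted p = 0.132).

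Lrfn2 (ENSMUSG00000040490, chr17:48932379-49097588), the adhesion molecule, had the smallest adjusted p of the 9. Fluoxetine HT females held 741, 741, 852, 689 and 732 and vehicle HT females 621, 605, 479.7, 547 and 569.8. Among HT males the fluoxetine libraries held 852, 929.7, 689, 835 and 742 and the vehicle libraries 507, 607, 715, 595 and 487. Females do not overlap, and in males 1 vehicle library lay above the lowest fluoxetine library. Lrfn2 rose by 0.45 ± 0.08 (SE) (adjusted p = 0.000195, 10 of 10 libraries), or 1.36-fold, and was called in females at 0.41 (adjusted p = 0.0153) and in males at 0.48 (adjusted p = 0.0205). The membrane-associated guanylate kinases were not called. Dlg4 (ENSMUSG00000020886, chr11:70016942-70047522) ranged over 28244 to 32453 with fluoxetine and 30000.2 to 31663 with vehicle in females, and its log2 difference with sexes averaged was 0.06 ± 0.05 (SE) (adjusted p = 0.507). For Dlg2 (ENSMUSG00000052572, chr7:90476672-92449247) the female ranges were 16409 to 18938 and 15104 to 16801, and the difference was 0.11 ± 0.05 (SE) (adjusted p = 0.11).

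Within HT females alone 3 of the 9 genes were called (background 6.86%, 2.94% higher), and within HT males also 3 (background 0.595%, 0.376% higher), all higher. Shank2 and Lrfn2 were called in both sexes, Homer1 in females and Dlgap4 in males. No difference between the sexes in the response to fluoxetine was detected in HT: 0 of 9 were called by limma for the interaction of sex with fluoxetine, 0 had an unadjusted p under 0.05, and edgeR and DESeq2 also called 0. The background of that test was 0.0%. The calls within a sex are the less stable ones. With depth as a covariate 0 members were called in HT females and 0 in HT males, and with only the libraries compared in the fit 0 were called in HT males. In HT females they ran from 0, without HT vehicle female 3, to 3 when 1 library at a time was left out, and came to 1 without HT fluoxetine female 2 or HT fluoxetine female 3. In HT males they ran from 0 to 4, falling to 0 without HT fluoxetine male 1, without HT fluoxetine male 2 or without HT vehicle male 4, and to 1 without HT fluoxetine male 3 or HT vehicle male 5. With sexes averaged the count was 5 in 19 of 20 such fits and 6, adding Dlg2, without HT vehicle male 1.

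Fluoxetine in WT mice went with a higher level of Lrfn2 alone of the 9 at this threshold, against a background of 0.208% called and 0.0843% called higher. WT females held 583, 673, 811, 749 and 869 normalized counts of Lrfn2 with fluoxetine and 516, 656, 460, 549.6 and 630.4 with vehicle. WT males held 760.4, 822, 907, 735 and 937 and 593, 693, 603, 585 and 511. In males every fluoxetine library lay above every vehicle library (background 1.08%), and in females 1 fluoxetine library lay inside the vehicle range. The log2 difference was 0.43 ± 0.08 (SE) (adjusted p = 0.00484, 10 of 10 libraries), next to 0.45 in HT. Within a WT sex no member was called, with 2 of 9 at an unadjusted p under 0.05 in each sex, Lrfn2 in both, Homer1 in females and Dlgap4 in males. The backgrounds there were 0.0% in females and 0.0786% in males. DESeq2 called 1 of 9 in WT males, and edgeR called 0 in either sex. No difference between the sexes in that response was detected in WT (limma, edgeR and DESeq2 0 of 9, 0 at an unadjusted p under 0.05, background 0.0%).

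Homer1 in WT females measured 8935, 6291, 10852, 7144 and 9601 with fluoxetine and 6065, 6353, 6319.5, 6668 and 6005 with vehicle. In WT males it measured 8349.7, 5283, 7589, 8255 and 7463 and 6236, 7516, 5913, 5794 and 5326. The 5 vehicle females are tightly bunched, and fluoxetine libraries lay both within and well above them; WT fluoxetine male 2 was below every vehicle male. The difference was 0.34 ± 0.11 (SE) (adjusted p = 0.192, above in 9 of 10 libraries), short of the threshold. Without WT fluoxetine male 2 alone, Homer1 joined Lrfn2 among the called genes. Without that library and HT vehicle male 1 together, 3 members were called in WT, Shank2 at 0.16, Homer1 at 0.40 and Lrfn2, and 7 in HT, where Dlg2 at 0.13 and Dlgap1 at 0.11 were added. The other WT differences were smaller: 0.12 for Shank2 (adjusted p = 0.397), 0.11 for Shank1 (0.644), 0.08 for Dlgap4 (0.497) and between -0.06 (Dlg4) and 0.04 (Shank3) for the remaining 4.

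The called genes differ in number between the genotypes, but the genotype difference itself was not detected. For the interaction of genotype with fluoxetine limma, edgeR and DESeq2 each called 0 of 9 members (background 0.0%), and 2 had an unadjusted p under 0.05. These were Shank1, whose response was larger in HT by 0.22 ± 0.10 (SE), 95% interval 0.01 to 0.43, and Shank2, larger by 0.16 ± 0.07 (SE), interval 0.01 to 0.31. For Homer1 the difference of responses was 0.19 with an interval of -0.11 to 0.49. For Lrfn2 it was 0.01 with an interval of -0.21 to 0.23. All 9 adjusted p were 0.9997.

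**Figure D2:**
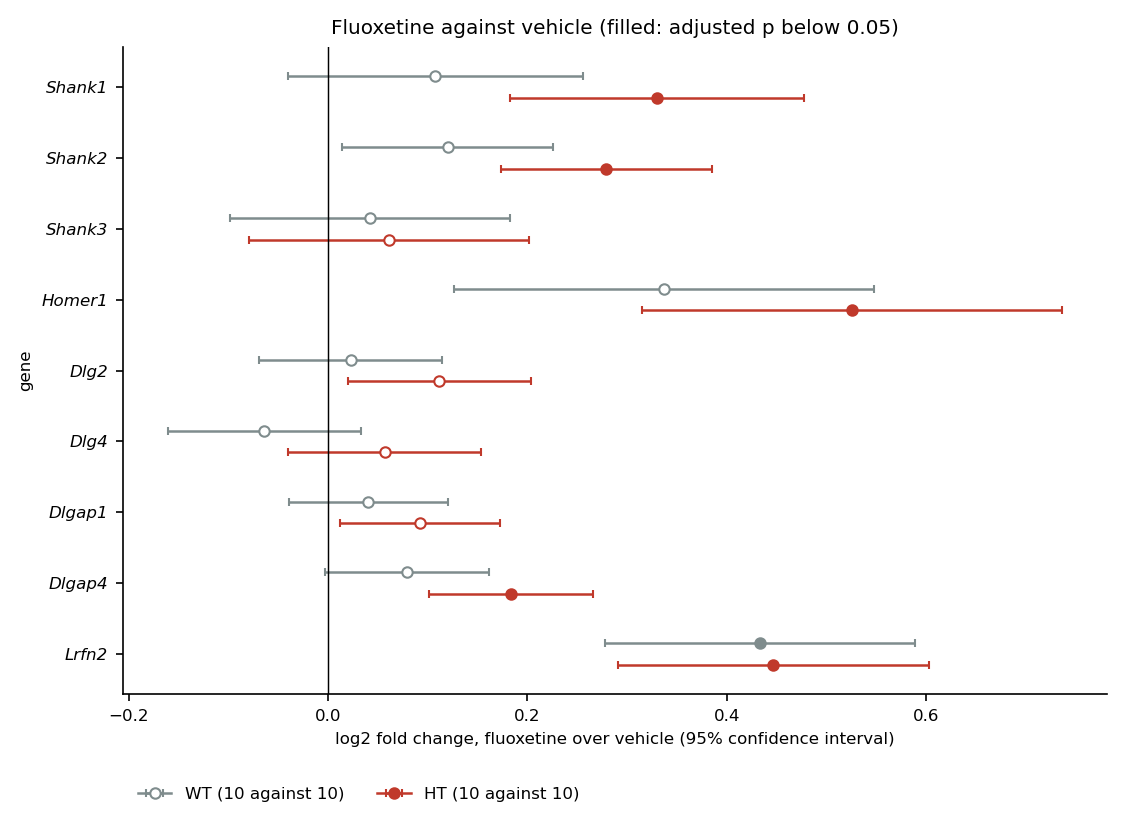
Log2 fold change of fluoxetine over vehicle (horizontal axis, with its 95% confidence interval) for each gene in WT and HT mice, sexes averaged, 10 libraries against 10; filled points passed an adjusted p of 0.05. Lrfn2 has nearly the same value in both genotypes (0.43 and 0.45), while Homer1, Shank1, Shank2 and Dlgap4 are filled in HT only, with intervals that overlap those in WT.

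Depth moved with the drug in all 4 comparisons of fluoxetine with vehicle within a genotype and sex. Fluoxetine libraries held 34.1 to 34.5 M reads on average and vehicle libraries 28.1 to 29.5 M, with exact permutation p = 0.00794 in each (two-sided, n = 5 against 5, the smallest possible; 0.0444 adjusted over 28 such tests). Since the 2 ranges do not meet, depth and fluoxetine cannot be told apart in these libraries. With log2 depth as a covariate, estimated within groups, 1 of the 5 HT calls was kept, Shank2 at 0.25 (adjusted p = 0.0411). Shank1 went to 0.29 (0.0921), Homer1 to 0.45 (0.0628), Dlgap4 to 0.14 (0.144) and Lrfn2 to 0.30 (0.0833), all in the same direction with larger standard errors. In WT, Lrfn2 went to 0.27 (adjusted p = 0.397). The share of all genes called with this covariate is not given here, so the lost calls are no result particular to these genes. As a description, the correlation with log2 depth over 60 libraries after removing group means was 0.27 for Lrfn2, 0.16 for Dlgap4, 0.10 for Homer1 and 0.08 for both Shank1 and Shank2.

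**Figure D3:**
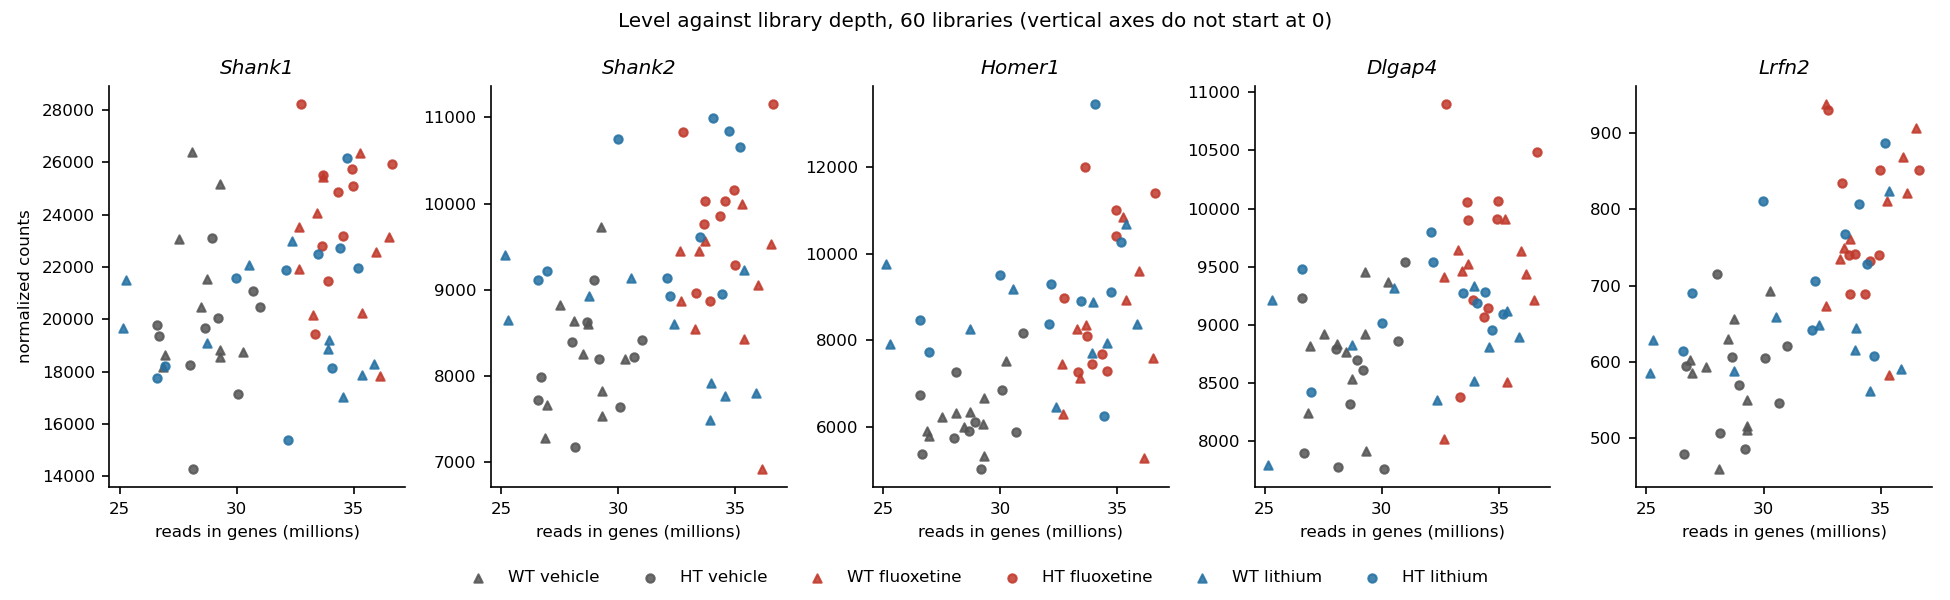
Normalized counts of the 5 genes called with fluoxetine in HT (vertical axes, not from 0) against reads in genes per library (horizontal axis, M) for all 60 libraries, by treatment (colour) and genotype (shape). Vehicle and fluoxetine libraries do not share a depth, while 7 lithium libraries lie at vehicle depth and hold 7724 to 9760 normalized counts of Homer1.

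The dependence of values on gene length was compared between fluoxetine and vehicle libraries, and no arm passed after adjustment. The slope of log2 value on log2 gene length averaged 0.04 in fluoxetine HT females and -0.01 in vehicle HT females (exact permutation p = 0.0159, 0.0741 adjusted over the 28 tests), and in males it was 0.02 in both groups (exact permutation p = 0.413). In WT females it averaged 0.04 and -0.01 (exact permutation p = 0.0238, 0.0952 adjusted). The slope on GC content averaged -0.55 with fluoxetine and 0.36 with vehicle in HT females (exact permutation p = 0.0317, 0.111 adjusted). It averaged -0.59 and 0.10 in WT females (exact permutation p = 0.0635, 0.178 adjusted). In males it averaged -0.29 and -0.08 in HT (exact permutation p = 0.786) and 0.34 and 0.20 in WT (exact permutation p = 0.690). Of the 9 genes, 8 have over 8 kilobases of exon and stand between the 86.8th and the 98.9th percentile of length; Lrfn2, with 3.20 kilobases, is at the 38.1st. Over the 2750 genes longer than 8 kilobases the median fluoxetine difference in HT was 0.04, against -0.01 in the other 15054, and 9.86% of the long genes were called higher. With both length and GC slopes as covariates the same 5 members were called in HT and Lrfn2 in WT.

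Cell type markers were checked beside these results, and no list had a marker at 0 in all libraries. Of all genes tested, 10.2% were called with fluoxetine in HT and 0.208% in WT. Slc17a7, the glutamate transporter that defines cortical excitatory neurons, held 36450.0 to 55987 normalized counts. Of 6 markers of cortical excitatory neurons, whose summed level was 44337 to 66610 normalized counts over the 12 groups, Neurod6, a transcription factor of these neurons, rose with fluoxetine in HT (0.35, adjusted p = 0.00662). Of 6 inhibitory neuron markers Slc32a1, the vesicular transporter of GABA, fell by 0.31 (0.0292); the summed level of the 6 was 20299 to 22922 with fluoxetine and 20962 to 26833 with vehicle in HT females, and 19508 to 22603 and 23253 to 25407 in HT males. Among 10 striatal markers Tac1 and Rarb fell in HT, by 0.44 (0.0369) and 0.43 (0.0452). The summed striatal level ran from 6749 to 11430 in fluoxetine HT males and from 6340 to 20816 in vehicle HT males, and 6674 to 14858 and 6787 to 12809 in HT females. Of 8 olfactory bulb markers 0 were called, but their summed level varied widely within groups. It ran from 3545 to 11603 in fluoxetine HT males and from 4596 to 18451 in vehicle HT males. In HT females it ran from 3875 to 13746 and from 5315 to 16739. Of 5 endothelial and mural markers Flt1 (0.44, 9.83e-07) and Rgs5 (0.31, 0.0182) rose. The rest of that list ran from -0.10 to 0.18 and was not called. Of 5 microglial markers P2ry12 rose (0.28, 0.039), and the rest, from -0.12 to 0.09, were not called. No astrocyte, oligodendrocyte or meningeal marker was called. In WT none of the markers was called. Adding striatal and olfactory scores as covariates left the counts of members at 5 in HT and 1 in WT; the part of the other cell types was not tested.

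Other genes of the same machinery mostly did not pass the test, where the background was 10.2% called in HT and 0.208% in WT. The counts of called genes below are near that background and are no result particular to these lists. Of 10 relatives of the 9 genes (further Dlg, Dlgap, Homer and Lrfn genes) 0 were called with fluoxetine in HT or in WT, with median differences of 0.04 and 0.03. Of 32 other proteins of the excitatory postsynapse, Synpo, an actin-binding protein of the spine apparatus, rose in HT by 0.20 ± 0.06 (adjusted p = 0.0305, 9 of 10 libraries). Pick1, which carries glutamate receptors away from the surface, fell by 0.16 ± 0.04 (0.00934, below in 10 of 10 libraries), and the other 30 were not called. Their median was 0.09 in HT with 27 of 32 above 0, and 0 were called in WT. Over all genes tested in HT the median was -0.004, with 48.9% above 0. The cause of that difference was not tested. Of 7 inhibitory postsynaptic proteins Lhfpl4, a subunit partner of GABA receptors, fell in HT by 0.19 ± 0.04 (0.00253, below in 10 of 10), and none was called in WT. These lists were chosen with earlier results of these data known.

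Genes that neurons induce within minutes of activity were called lower more often than higher with fluoxetine. The background was again 10.2% called in HT and 0.208% in WT. Of 18 such immediate early genes, Egr3 rose in HT by 0.33 ± 0.11 (adjusted p = 0.0401), while Junb fell by 0.43 ± 0.14 (0.0452) and Btg2 by 0.70 ± 0.19 (0.0144), each in 9 of 10 libraries. In WT, Nr4a1 fell by 0.74 ± 0.14 (0.00499), Junb by 0.74 ± 0.14 (0.00716), Arc by 1.08 ± 0.23 (0.0239) and Fos by 0.75 ± 0.17 (0.0265). Homer1 in the same WT libraries was at 0.34, above its vehicle mean in 9 of 10. The mean score of the 18 genes was -0.50 in fluoxetine WT males against 0.19 in vehicle WT males (exact permutation p = 0.00794, 0.0444 adjusted over the 28 tests), with no overlap. In the other 3 arms the ranges of the score overlapped, with exact permutation p = 0.310 in HT females, 0.397 in HT males and 0.310 in WT females. Over 60 libraries the within-group correlation of Homer1 with that score was 0.27.

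Lithium in HT mice went with called differences in 5 of the 9 genes, against a background of 14.6% (7.44% higher and 7.14% lower): Homer1, Lrfn2, Shank2 and Shank3 rose and Dlgap1 fell. These comparisons use the same vehicle libraries as those of fluoxetine, so the responses to both drugs are not independent of each other. Homer1 measured 9111, 13461, 10274, 8386 and 6264 in lithium HT females and 8470.1, 9519, 9304, 7724 and 8914 in lithium HT males. In males all 5 lay above every vehicle library of their sex (background 3.82%) and in females 1 lay inside the vehicle range, below the vehicle mean. The log2 difference was 0.52 ± 0.11 (SE) (adjusted p = 0.000441, 9 of 10 libraries), beside 0.53 with fluoxetine. In WT, Homer1 alone of the 9 was called with lithium (background 4.57%, 2.46% higher), at 0.45 ± 0.11 (SE) (adjusted p = 0.00738, 10 of 10 libraries). WT lithium females held 7939, 8894, 8392, 7717 and 10698, all above the highest vehicle female (background 1.59%), and WT lithium males held 8272, 9196, 7921, 9760.4 and 6467, with 1 inside the range of the vehicle males.

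Lithium libraries allow a look at vehicle depth. Of the 20 lithium libraries, 7, all male, were no deeper than the deepest vehicle library, at 25.1 to 30.5 M reads. They held 7724 to 9760 normalized counts of Homer1 (median 8470.1), against 5032 to 8182 (median 6092) in the 20 vehicle libraries, and 5 of 7 lay above every vehicle library. Lrfn2 in the same 7 libraries held 586 to 810.2 (median 629) against 460.0 to 715 (median 589), with 1 of 7 above every vehicle library. This subset was chosen after the values were seen and is given without a test. The 20 vehicle libraries are of both sexes, so the sets differ in sex as well as treatment. The share of all genes that separate in this way is not given here. With the depth covariate Homer1, Shank2 and Lrfn2 were still called with lithium in HT, while in WT none was.

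Shank2 in HT rose with lithium by 0.27 ± 0.05 (SE) (adjusted p = 0.000369, 10 of 10 libraries). Its libraries held 10845, 10988, 10652, 9137 and 8949 in females and 9119, 10745, 8924, 9219.8 and 9612 in males, the males all above the vehicle males (background 3.82%). Shank3, which was not called with fluoxetine, rose by 0.23 ± 0.07 (SE) (0.0191, 8 of 10). Its female libraries spread widely, 11259, 9064, 8666, 6875 and 7855, and without HT lithium female 1, or without HT vehicle male 1, the call was lost. It was also lost when only the libraries compared entered the fit, with the depth covariate and with the striatal and olfactory scores. Lrfn2 rose by 0.34 ± 0.08 (SE) (0.00176, 10 of 10). Dlgap1 fell, by 0.13 ± 0.04 (0.0168, below in 9 of 10), from 15394 ± 529 to 14568 ± 874 (SD, n = 5) in females and from 15777 ± 991 to 13868 ± 946 in males. The Dlgap1 call was lost under quantile normalization, the depth covariate and the striatal and olfactory scores. No member was called for the interaction of genotype with lithium (0 of 9 by limma, edgeR and DESeq2, background 0.0%). Shank2 came nearest, with a response larger in HT by 0.23 ± 0.07 (SE), unadjusted p = 0.00396 and adjusted p = 0.849.

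Fluoxetine set directly against lithium, which leaves the vehicle libraries out of the difference, put Dlgap1, Shank1 and Dlg2 past the threshold in HT and Dlgap1 and Lrfn2 in WT. Counts of libraries are here against the mean of the lithium group of the same sex. In HT, 3 of 9 were higher with fluoxetine (background 24.8% called, 12.2% higher). These were Dlgap1 at 0.23 ± 0.04 (SE) (adjusted p = 3.19e-05, 10 of 10 libraries), Shank1 at 0.24 ± 0.07 (SE) (0.0127, 10 of 10) and Dlg2 at 0.18 ± 0.05 (SE) (0.00307, 9 of 10). That count is near the background, and the Shank1 call was lost under quantile normalization and the Dlg2 call with length and GC slopes as covariates. Dlgap1 libraries held 15788 to 16754 with fluoxetine and 13416 to 15668 with lithium in HT females, without overlap (background 2.17%), and 15645 to 18064 and 13117 to 15457 in HT males, also without overlap (background 4.53%). Dlg2 in HT males held 13746, 15519.5, 13903, 14694 and 15309 with lithium, all below the 15841 to 19071 of the fluoxetine males and below the 15680.2 to 18463 of the vehicle males (background for lithium below vehicle 3.48%). In WT, Dlgap1 at 0.13 ± 0.04 (SE) (0.023, 9 of 10) and Lrfn2 at 0.30 ± 0.08 (SE) (0.00943, 9 of 10) were higher with fluoxetine (background 9.76% called, 4.35% higher). The Lrfn2 call was lost with the depth covariate. The Dlgap1 call in WT was lost under quantile normalization, with only the libraries compared, with length and GC slopes, and without WT fluoxetine male 1, WT fluoxetine male 4 or WT lithium male 4, and without WT fluoxetine male 2 Shank1 was called as well. Homer1 and Shank2 did not differ detectably between the drugs in HT, at 0.00 (95% interval -0.21 to 0.21) and 0.01 (-0.09 to 0.12). For Shank3 the value was -0.17 (adjusted p = 0.0673); it passed the threshold under quantile normalization, with depth or marker scores as covariates, by DESeq2, without the 2 libraries that stood apart, and without HT fluoxetine male 1, HT lithium female 4 or HT lithium male 1.

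Beside the lithium results, 3 of the 32 other excitatory postsynaptic proteins were called higher and 3 lower with lithium in HT. These counts are near the background of 7.44% higher and 7.14% lower. In WT 0 were higher and 1 lower (background 4.57% called). Between the drugs, 10 of the 32 were higher with fluoxetine and 1 lower in HT (background 24.8% called, 12.2% higher). In WT 4 were higher and 0 lower (background 9.76% called, 4.35% higher). The same backgrounds apply to the counts that follow. Of the 10 relatives, 1 was higher with lithium in HT and 0 were called in WT, and 2 were higher and 2 lower with fluoxetine than with lithium in HT. Cell type markers moved with these comparisons too. With lithium in HT 8 of 10 striatal markers were called lower (median -0.57), and 4 of 6 excitatory neuron markers were higher with fluoxetine than with lithium in HT (median 0.29). Of the 18 immediate early genes 8 in HT and 9 in WT were lower with fluoxetine than with lithium, while Homer1 was at 0.00 in HT. Their part in the members' values was not tested.

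**Figure D4:**
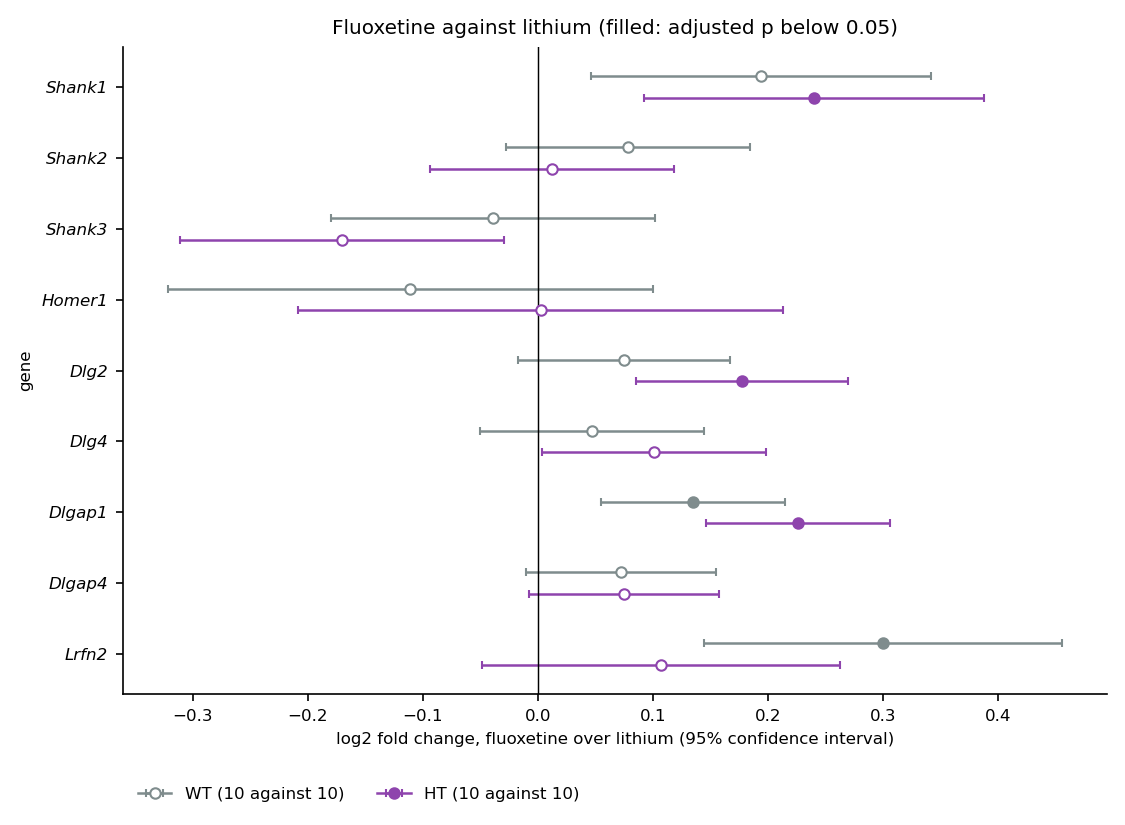
Log2 fold change of fluoxetine over lithium (horizontal axis, with its 95% confidence interval) in WT and HT mice, sexes averaged, 10 libraries against 10; filled points passed an adjusted p of 0.05. Dlgap1 is right of 0 in both genotypes (0.13 and 0.23), Homer1 lies around 0, and Shank3 lies left of 0 in HT without passing.

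Genotype alone took at most 1 member past the threshold within a treatment. With vehicle, 0 of 9 members were called between HT and WT by limma, edgeR or DESeq2 (background 0.152%), and 0 had an unadjusted p under 0.05. Differences ran from -0.12 for Shank1 to 0.01 for Homer1, HT relative to WT. With fluoxetine again 0 were called by any of the 3 tools (background 0.135%), with Shank2 alone at an unadjusted p under 0.05, higher in HT by 0.14 ± 0.05 (SE) (adjusted p = 0.255, above in 10 of 10 HT libraries). With lithium, Shank2 was called (background 0.573%, 0.275% higher), higher in HT by 0.21 ± 0.05 (SE) (adjusted p = 0.0473, 9 of 10). WT lithium females held 7771, 7920.2, 7805, 7485 and 9231 of it and HT lithium females 10845, 10988, 10652, 9137 and 8949, which overlap through WT lithium female 5. In males WT held 8923, 9135, 8649.7, 9404 and 8603 and HT 9119, 10745, 8924, 9219.8 and 9612, overlapping widely. The Shank2 call stood near the threshold and was lost in 15 of 20 fits that left out 1 library, with the replicate number as a block, with only the libraries compared and with either depth or slope covariates. Between the sexes with vehicle 0 of 9 members were called by the 3 tools (background 0.124%), and Shank1 alone had an unadjusted p under 0.05, at -0.18 ± 0.07 (SE) in males relative to females (adjusted p = 0.588).

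Library by library, the 9 genes did not move as one. After removing group means, the correlation over 60 libraries was 0.75 between Shank2 and Shank3, 0.75 between Shank3 and Dlg4, 0.72 between Shank1 and Shank3 and 0.65 between Shank1 and Shank2. Homer1 was near 0 against Shank1 (-0.01) and Dlg4 (0.00), and reached 0.45 with Shank2. Dlg4 and Dlgap1 went opposite ways (-0.29). These are descriptions, and the libraries share composition. The within-group correlation with the library's GC slope was 0.60 for Shank3 and 0.51 for both Dlg4 and Shank1. It was negative for Homer1 (-0.25), Dlg2 (-0.39) and Dlgap1 (-0.48). With the library's olfactory bulb score the correlation was -0.60 for Shank3 and -0.57 for Dlg4. With that olfactory score it was -0.52 for Lrfn2 and -0.48 for Shank2, and the highest of the 9 was 0.21, for Dlgap4. For Dlgap1 the correlation with the length slope was 0.61. With the excitatory neuron score it ran from 0.03 for Dlgap4 to 0.58 for Dlg2, with 0.56 for Lrfn2 and 0.44 for Shank2. With the striatal score it was 0.47 for Lrfn2, and between -0.04 (Dlg2) and 0.15 (Shank3) for the others. Among 12831 other genes averaging 50 normalized counts or more, those most like the mean of the 9 over 60 libraries, by Pearson's r, were Apba1 (0.82), Rnf165 (0.82) and Npas2 (0.80). For Homer1 they were Spred1 (0.88), Gramd1b (0.87) and Stk4 (0.86), for Shank1 Ppp1r9b (0.76), Apba1 (0.76) and R3hdm1 (0.75), and for Shank2 Rnf165 (0.84), Arhgap39 (0.83) and Trak1 (0.82). For Dlgap4 they included Actn4 (0.81) and Tmem108 (0.70), and for Lrfn2 they were Slc35f3 (0.78), Brinp2 (0.78) and Prkag2 (0.73).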

How the data were processed

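Prefrontal cortex mRNA of 60 mice was sequenced from stranded poly(A) libraries, per the labels' protocols. The authors deposited 1 table of signal values, gene counts divided by 1 size factor per library; the submitters' processing notes name Salmon 0.11.2, R 3.6.0, DESeq2 1.19.11 and GRCm38. The annotation, the strand setting and the step from transcripts to genes are not given in the sources used here. All values (100% within 0.01) were whole multiples of 1 step per library, so whole reads were recovered from the deposited signal, with size factors of 0.85 to 1.25. Symbols and lengths came from GENCODE (18077 of 18088 identifiers matched).

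Here, log2(normalized count + 1) was fitted with limma 3.58.1 (R 4.3.3) on 12 group means over 60 libraries (48 residual degrees of freedom). A gene was kept if 5 or more libraries reached 10 normalized counts (17804 kept, 284 removed). The pipeline was tested on simulated data. Alternatives included edgeR 4.0.16 and DESeq2 1.42.0 on the recovered reads. Replicate numbers were tried as a block. The members, gene lists and tests were chosen with earlier results of these data known. Named genes were the 9 members, every listed gene called with fluoxetine (sexes averaged, at most 8 a list) and the 3 genes most correlated with each called member. A result of a marker list and a correlated gene that this rule selects are not reported here. Promoters are from RefSeq (GRCm38.p6).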

Additional observations from a re-analysis of the deposited data

Results flagged for a closer look

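Among 108 sets of 5 libraries (9 genes in 12 groups), 5 held a library far from the other 4, by a gap of more than 0.71 of the whole range. Chance alone gives about 1 in 20, so 5 of 108 is about the number chance gives. WT vehicle male 1 was the highest of its group for Shank1, at 23080.2 normalized counts against 18168.5 to 18726.6 in the others. WT lithium female 5 was the highest for Shank2, at 9231.4 against 7484.6 to 7920.2, and is the library through which WT and HT lithium females overlap. HT vehicle male 1 was the lowest for Shank3, at 5459.1 against 7494.1 to 7960.2. WT fluoxetine male 2 was the lowest for Homer1, at 5282.8 against 7463.4 to 8349.7, and for Dlgap1, at 12808.0 against 16333.7 to 17527.9. The last 2 libraries also stood apart in GC slope and length slope, and their part in these values was not tested.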

How the results depend on the processing

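Counts below are members called. The share of all genes called under each setting is not given beside them, so they describe the members only. With depth as a covariate they were 1 (HT) and 0 (WT) for fluoxetine against vehicle, 0 in HT females and 0 in HT males, 3 (HT) and 0 (WT) for lithium, 1 for fluoxetine against lithium in WT and 0 for HT against WT with lithium. With only the libraries compared they were 0 in HT males, 1 for fluoxetine against lithium in WT and 0 for HT against WT with lithium. With length and GC slopes they were 5 in HT males, 1 in WT males, 1 for fluoxetine against lithium in WT and 0 for HT against WT with lithium. DESeq2 gave 5 in HT males and 1 in WT males, a filter at 50 normalized counts 1 in WT males, quantile normalization 1 for fluoxetine against lithium in WT, and striatal and olfactory scores 2 for lithium in WT. Without HT vehicle male 1 and WT fluoxetine male 2, fluoxetine in WT gave 3. The cause was not tested.

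With the replicate number as a block, fluoxetine against vehicle still gave 5 in HT and 1 in WT, 1 in WT males, and HT against WT with lithium gave 0. Same-numbered drug and vehicle libraries of 1 genotype and sex were also correlated. In none of 8 such comparisons did all 5 pairs correlate above 0.1. In HT lithium males 2 of 5 did, the highest at 0.37, and in HT lithium females also 2 of 5, the highest at 0.25. In WT fluoxetine females, WT lithium females and WT fluoxetine males 1 of 5 did, at 0.23, 0.18 and 0.16. In HT fluoxetine females, HT fluoxetine males and WT lithium males 0 did. Pairs across genotype or sex were not checked, so a shared litter or batch was not tested.

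Leaving out 1 library at a time gave 5 to 6 for fluoxetine in HT, 1 to 2 in WT (2 without WT fluoxetine male 2), 0 to 3 in HT females, 0 to 4 in HT males, 0 to 1 in WT males (1 without WT vehicle male 2), 4 to 6 for lithium in HT, 3 to 4 and 1 to 3 for fluoxetine against lithium in HT and WT, and 0 to 1 for HT against WT with lithium.

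Sign changes occurred in log2 differences near 0 that were not called. For fluoxetine in HT, Shank3 went to -0.0331 and Dlg4 to -0.0482 with depth, and Shank3 to -0.0157 with the marker scores. In WT, Shank3 went to -0.0610 with depth and -0.000728 with the marker scores, and Dlg2 to -0.00298 under quantile normalization and -0.00406 with length and GC slopes. For the genotype by fluoxetine interaction, Shank3 went to -0.0149 with the marker scores and -0.0521 without those 2 libraries, Lrfn2 to -0.0107 without them, and leaving out 1 library gave -0.0311 to 0.0556 for Shank3 and -0.0268 to 0.0526 for Lrfn2.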
